A study of Mus musculus with 8 samples.

Results

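Fragments of 14 nuclear tRNA isotypes were followed in mouse sperm: the initiator (iMet) and elongator methionine tRNAs and those of alanine, isoleucine, proline, asparagine, glutamine, threonine, cysteine, arginine, phenylalanine, tryptophan, tyrosine and selenocysteine (SeC). A sequence was a member when every tRNA named in its annotation was nuclear and of 1 of these isotypes. The 11233 members, of 5724730 distinct fragments in all, held 3414980 of 115750464 reads, or 2.95%. Sperm came from the caudae epididymides of 4 activated and 4 control males, 1 library per mouse. Activated mice were Agrp Cre/+ and control mice Agrp +/+, and all 8 received AAV-hSYN-DIO-hM3D(Gq)-mCherry in the arcuate hypothalamus at 8 weeks of age and CNO 3 weeks later. The virus carries an excitatory receptor for CNO that is switched on only by Cre, so CNO excites AgRP neurons, which drive feeding, in the activated mice alone. The dose was 1 mg/kg, injected 1 h after removal of food, and sperm was collected 4 h after the injection. No library comes from mice with Cre but without CNO or the virus, so an effect of the Cre allele itself cannot be told apart from that of neuron activation. Whether these fragments differ in abundance in sperm after the neurons are activated is the question of the comparison.

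A tRNA folds into a cloverleaf whose first and last bases pair in the acceptor stem, and the bases CCA are added to its 3′ end after transcription. Enzymes such as angiogenin cut tRNAs in or near the anticodon loop and leave longer 5′ and 3′ fragments, and cuts in the D loop and T loop leave shorter ones. Mature sperm makes little new protein and carries many such fragments, some gained from vesicles of the epididymis during maturation. The annotation gives each fragment 1 of 4 positions: at the 5′ end, at the 3′ end without CCA, at the CCA end, or internal where it reaches neither end.

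The most abundant fragment of each of 13 isotypes is listed here. It shows 1 piece of the tRNA, not where most reads came from. For iMet, Gln and Pro it is a CCA end, whereas 65.2%, 60.9% and 53.4% of their reads were internal. Each fragment is given with its anticodon, and where several anticodons share a sequence they are named together (for Pro, all 3). Capitals mark anticodon bases and the complete added CCA. An incomplete CCA, as at the end of some internal fragments, is left in lower case. A sequence in lower case alone thus holds no anticodon base and no complete added CCA.
iMet-CAT, CCA end, 16 nt: ccatcctctgctaCCA
Ala-AGC, CGC or TGC, 5′ end, 23 nt: ggggatgtagctcagtggtagag
Ile-AAT, CCA end, 15 nt: ccgtacgggccaCCA
Pro with 3 anticodons, CCA end, 30 nt: tcccgggttcaaatcccggacgagcccCCA
Asn-GTT, internal, 41 nt: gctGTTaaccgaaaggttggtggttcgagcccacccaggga
Gln-TTG, CCA end, 45 nt: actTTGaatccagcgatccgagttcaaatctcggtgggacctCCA
Thr-CGT, CCA end, 15 nt: ccgtccgtgcctCCA
Cys-GCA, 5′ end, 23 nt: gggggtatagctcagtggtagag
Arg-CCG or TCG, CCA end, 15 nt: ccttcgtggtcgCCA
Phe-GAA, CCA end, 38 nt: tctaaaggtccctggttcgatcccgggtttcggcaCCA
Trp-CCA, CCA end, 38 nt: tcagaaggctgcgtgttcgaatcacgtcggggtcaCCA
Tyr-GTA, CCA end, 15 nt: cggctcgaaggaCCA
SeC-TCA, 5′ end, 37 nt: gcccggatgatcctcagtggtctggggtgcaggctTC

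4 further fragments, chosen after their values were seen, show where 5′ fragments of Cys and SeC stop. The 34 nt fragment of Cys and the 37 nt fragment of SeC both end on the second base of the anticodon. The 32 nt fragment of Cys ends just before the anticodon, and the 25 nt fragments end past the D loop.
Cys-GCA, 5′ end, 25 nt: gggggtatagctcagtggtagagca
Cys-GCA, 5′ end, 32 nt: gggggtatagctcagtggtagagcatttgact
Cys-GCA, 5′ end, 34 nt: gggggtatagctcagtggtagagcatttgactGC
SeC-TCA, 5′ end, 25 nt: gcccggatgatcctcagtggtctgg

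The libraries held between 9297271 and 23123740 reads. Activated replicates 1 to 4 had 14903635, 17489698, 14757501 and 9409491, and control replicates 1 to 4 had 12421068, 23123740, 9297271 and 14348060. Values are reads per 1e6 reads of a library (RPM), in the order of replicates 1 to 4, with means ± SD over the 4 mice of a group. Since amplification copies reads, the error is taken from the spread over mice.

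The libraries differed in ways that the groups do not follow. Mitochondrial rRNA made up 1.89% and 1.69% of reads in activated replicates 2 and 3 and 1.21% and 1.09% in control replicates 1 and 3 (the rich set), and between 0.123% and 0.182% in the other 4 libraries (the poor set). Each set holds 2 activated and 2 control libraries, and ratios are given within both for the larger results.

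All 19 miRNAs of a list typical of testis and sperm were detected, with summed levels of 62496, 44234, 34967 and 59264 RPM in activated and 37579, 52099.8, 27473 and 45229.6 RPM in control libraries. The most abundant over all 8 libraries was miR-34b, at 8428 ± 1467 RPM (SD, n = 4) in activated and 8211 ± 1070.4 RPM (SD, n = 4) in control sperm. Activated replicate 1 was highest and control replicate 3 lowest for the list, and the groups overlapped. Control replicate 4 stood apart in miRNAs of other cells. The 5 miRNAs of a muscle and vessel list, led by miR-143, summed to 36472 RPM there and to between 180.2 and 524 RPM in the other 7 libraries. The 7 of an epithelium list, led by miR-200c, summed to 19420.2 RPM there and to between 1085 and 3476 RPM in the others. The 4 of an erythrocyte list, led by miR-451a, summed to 201, 47.9, 64.6 and 58.3 RPM in activated and 126, 383, 565 and 285 RPM in control libraries. The 4 of a leukocyte list, led by miR-142a, summed to between 398 and 862 RPM in activated and between 295 and 553 RPM in control libraries. Every miRNA of the 5 lists was detected in at least 1 library. The part of other cells in the tRNA fragments was not tested.

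Taken over all 14 isotypes, fragments stood at 32364, 26019, 24603 and 30728 RPM in activated and 35849, 31173, 34737 and 23438 RPM in control sperm. Control replicates 1 and 3 were highest and control replicate 4 was lowest of all 8 libraries, so the groups overlapped. The means were 28429 ± 3707 RPM (SD, n = 4) and 31299 ± 5608 RPM (SD, n = 4), a ratio of activated to control of 0.908. The ratio was 0.717 within the rich set and 1.16 within the poor set, so its direction was opposite in the 2 sets. It was 0.838 without control replicate 4. In bulk sperm RNA, fewer cells that carry a fragment and less of it per cell cannot be told apart. This total was not tested.

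As a share of all nuclear tRNA reads, the 14 isotypes took 32.02%, 27.8%, 30.6% and 33.6% in activated and 27.3%, 26.8%, 22.6% and 29.2% in control libraries. Activated replicates 1, 3 and 4 lay above every control library, and activated replicate 2 lay below control replicate 4. The ratio of the means was 1.17, and it was 1.17 within each set. The other 8 isotypes (Asp, Glu, Gly, His, Leu, Lys, Ser and Val) had 60841 ± 5215 RPM after activation against 86747 ± 25313 RPM in controls (SD, 4 mice each), which makes a ratio of 0.701.

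**Figure D1:**
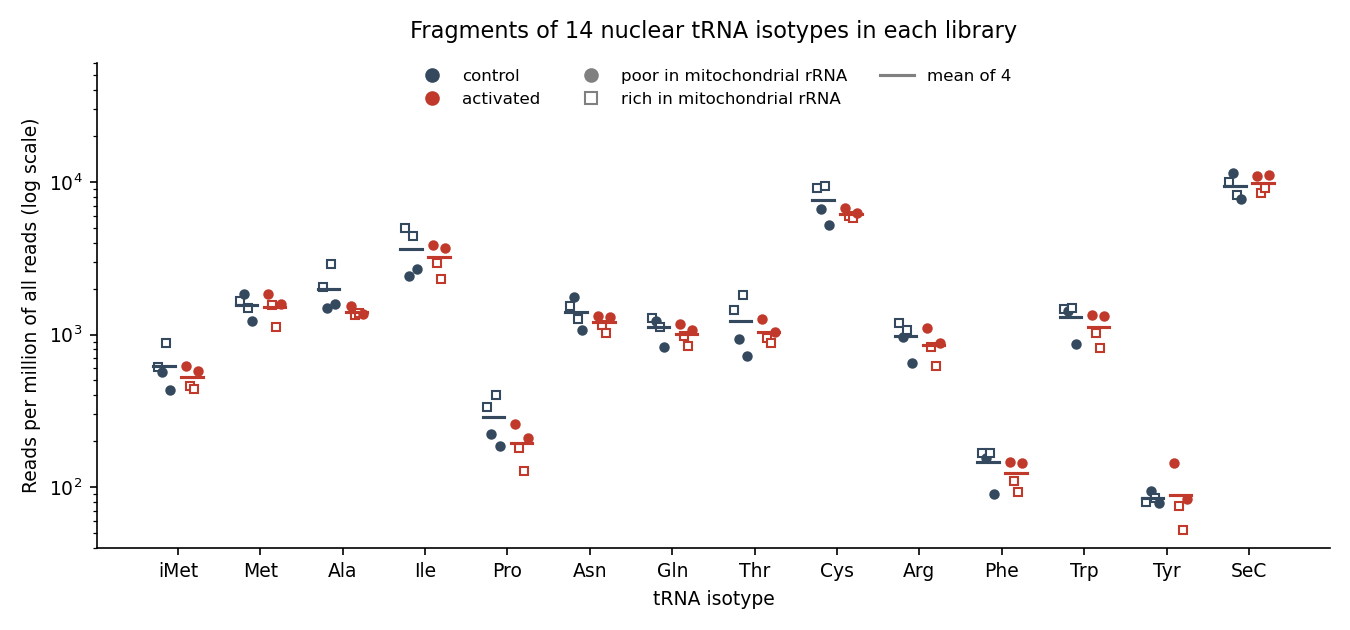
RPM (log scale) of each of 14 isotypes in 4 control and 4 activated libraries, 1 mark per library, with filled circles for libraries poor and open squares for libraries rich in mitochondrial rRNA and a line at the mean of 4. The groups overlap for every isotype, and in control sperm the open squares lie above the filled circles for 9 isotypes: iMet, Ala, Ile, Pro, Thr, Cys, Arg, Phe and Trp.

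Of the methionine tRNAs, the initiator starts translation and the elongator adds methionine within the chain. iMet fragments stood at 621, 460.3, 441 and 579 RPM in activated and 615, 569, 883 and 432 RPM in control sperm. Control replicate 3 was highest and control replicate 4 lowest. The ratio was 0.840, with 0.601 within the rich and 1.20 within the poor set. Met fragments stood at 1523 ± 295 RPM after activation and 1559 ± 264 RPM in controls (SD, n = 4 mice each), a ratio of 0.977. That of Met passed 1 without activated replicate 3 (1.06), control replicate 1 (1.0006) or control replicate 2 (1.04). Of iMet reads 65.2% were internal and 29.7% at the CCA end, and of Met reads 73.4% were at the CCA end.

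Ala, Ile and Pro are small or hydrophobic amino acids. Ala fragments stood at 1545, 1340.1, 1382 and 1362 RPM in activated and 2046, 1503, 2882 and 1575 RPM in control sperm. Activated replicate 1 lay above control replicate 2, and the other 3 activated libraries lay below every control library. The ratio was 0.703, the exact permutation test (two-sided, n = 4 per group) gave p = 0.0571 and the value adjusted over the 22 nuclear isotypes was 0.629. Ala was lower in activated sperm in both sets, at 0.552 within the rich and 0.944 within the poor set, and it was 0.649 without control replicate 2, the control library that overlaps the activated ones, and 0.824 without control replicate 3, the highest (exact permutation test, p = 0.0857, n = 4 and 3). Ile fragments stood at 3867, 2947, 2321 and 3716 RPM in activated and 4958, 2412, 4421 and 2674 RPM in control sperm. Control replicates 1 and 3 were highest, and activated replicates 1 and 4 lay between them and the rest. The ratio was 0.888 over all libraries, 0.562 within the rich and 1.49 within the poor set, and 1.01 without control replicate 1. A single sequence carried most of it: the 15 nt CCA-end fragment of Ile-AAT was at 2745 ± 648 RPM after activation and 3071 ± 1185 RPM in controls (SD, n = 4 mice each). Pro fragments were at 194 ± 55.8 and 286 ± 99.9 RPM (SD, n = 4 each), a ratio of 0.680, with 0.418 within the rich and 1.15 within the poor set.

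Asn, Gln, Thr and Cys are polar residues. Cys fragments stood at 6800.0, 5954, 5765 and 6279 RPM in activated and 9132, 6646, 9392 and 5245 RPM in control sperm. Control replicates 1 and 3 were highest and control replicate 4 was lowest, while the 4 activated libraries lay close together. The ratio was 0.815 (exact permutation test, p = 0.314, n = 4 per group), with 0.633 within the rich and 1.0999 within the poor set. Asn, Gln and Thr fragments had ratios of 0.851, 0.912 and 0.843. Asn was lower in activated sperm in both sets, at 0.780 and 0.921, whereas Gln and Thr were above 1 in the poor set, at 1.096 and 1.399, and Thr stood at 1.004 without control replicate 3. The RefSeq annotation of GRCm38, the build named mm10, lists 56 Cys-GCA genes, of which 48 lie on chromosome 6, more than for any other of the isotypes. Reads did not follow gene number closely: over 12 isotypes, with iMet and Met joined and SeC left out, the rank correlation of reads with listed genes was 0.495, and 0.3396 without Cys. That is a description across isotypes of the same libraries.

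Arg carries a positive charge. Its fragments stood at 855 ± 195 RPM after activation and 973 ± 233 RPM in controls (SD, n = 4 mice each), a ratio of 0.879, and were spread over 2306 sequences, the most of any of the 14 isotypes. Phe, Trp and Tyr are aromatic. Their ratios were 0.846, 0.861 and 1.05. Phe and Trp were lowest in control replicate 4 among control libraries, and Tyr was highest in activated replicate 1, at 145 RPM against 52.7 to 94.3 RPM in the other 7. Without activated replicate 1 the ratio of Tyr was 0.834. Phe may be undercounted, since 99643 reads matched both Phe and Ser tRNAs and were left out, against 15349 that named Phe alone. Of the shared reads, 94452 were at the CCA end. Which of the tRNAs the shared reads came from was not tested.

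SeC-TCA reads a UGA stop codon as selenocysteine and serves selenoproteins, several of which are needed in sperm. It held 32.98% of all reads of the 14 isotypes. SeC fragments stood at 10948, 8451, 9123 and 11155 RPM in activated and 9937, 11429.7, 8216 and 7779 RPM in control sperm. Control replicate 2 was highest and control replicate 4 lowest, so the groups overlapped. The ratio was 1.06 (exact permutation test, p = 0.629, n = 4 per group), with 0.968 within the rich and 1.15 within the poor set.

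Across the 14 isotypes, 12 had a lower mean in activated than in control sperm, as had all 8 of the other isotypes. Within the rich set all 14 were lower, and within the poor set 2 were lower (Ala and Asn). The lowest p of the 14 was that of Ala, the lowest adjusted p over the 22 isotypes was 0.629 by exact permutation tests with n = 4 per group, and the smallest p such a test can give is 0.0286. Without control replicate 4, the library high in epithelial and muscle miRNAs, the ratio was 1.006 for SeC, 0.739 for Cys, 0.751 for Phe, 0.774 for Trp and 0.762 for iMet, and for the other 9 it lay between 0.609 (Pro) and 1.03 (Tyr). The directions also depend on the denominator. Against all nuclear tRNA reads, 10 of the 12 isotypes with a ratio under 1 had one above 1.

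**Figure D2:**
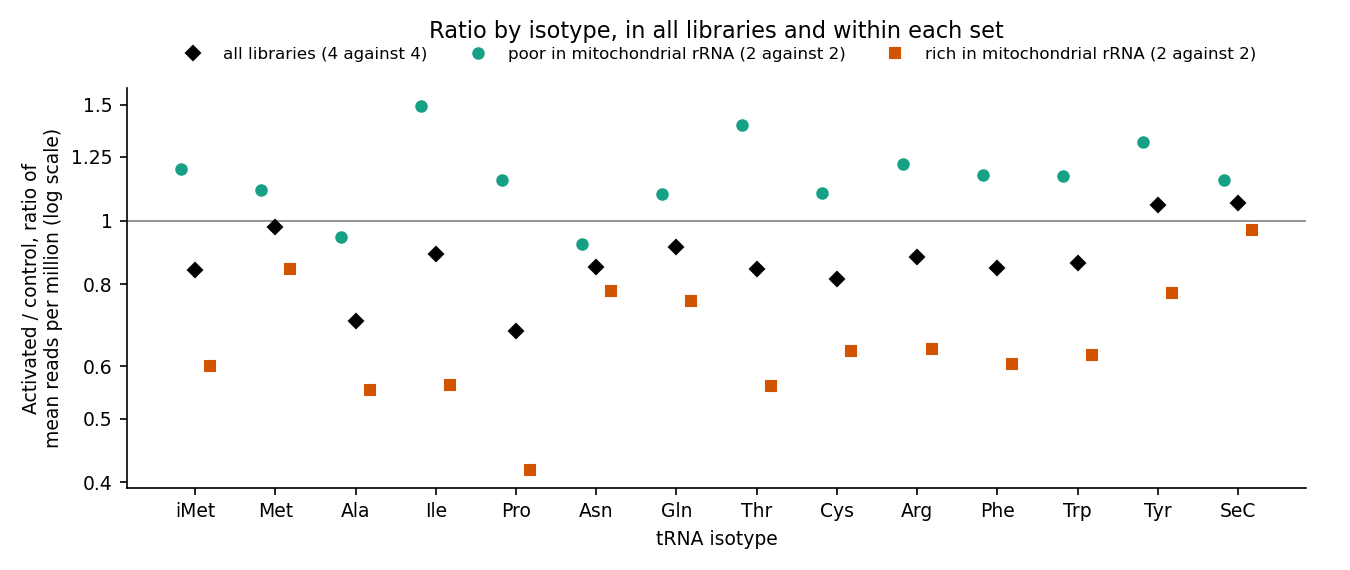
Ratio of mean RPM, activated over control (log scale), for each isotype over all libraries (diamonds) and within the libraries poor (circles) and rich (squares) in mitochondrial rRNA. All 14 squares lie below 1 and 12 of 14 circles lie above 1.

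Isotypes differed far more from one another in the end of the tRNA they came from than the groups did. Reads at the 5′ end made up 96.9% of Cys, 73.0% of SeC and 51.3% of Ala reads. For the other 11 isotypes the share was at most 9.41%, reached by Thr, and it was 0.0123% for Asn (19 reads in all) and 0.0258% for Trp (36 reads). The CCA end gave 93.8% of Ile, 73.3% of Phe and 71.6% of Trp reads, and internal fragments gave 76.6% of Asn and 60.9% of Gln reads. The Phe share leaves out the CCA-end reads shared with Ser.

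**Figure D3:**
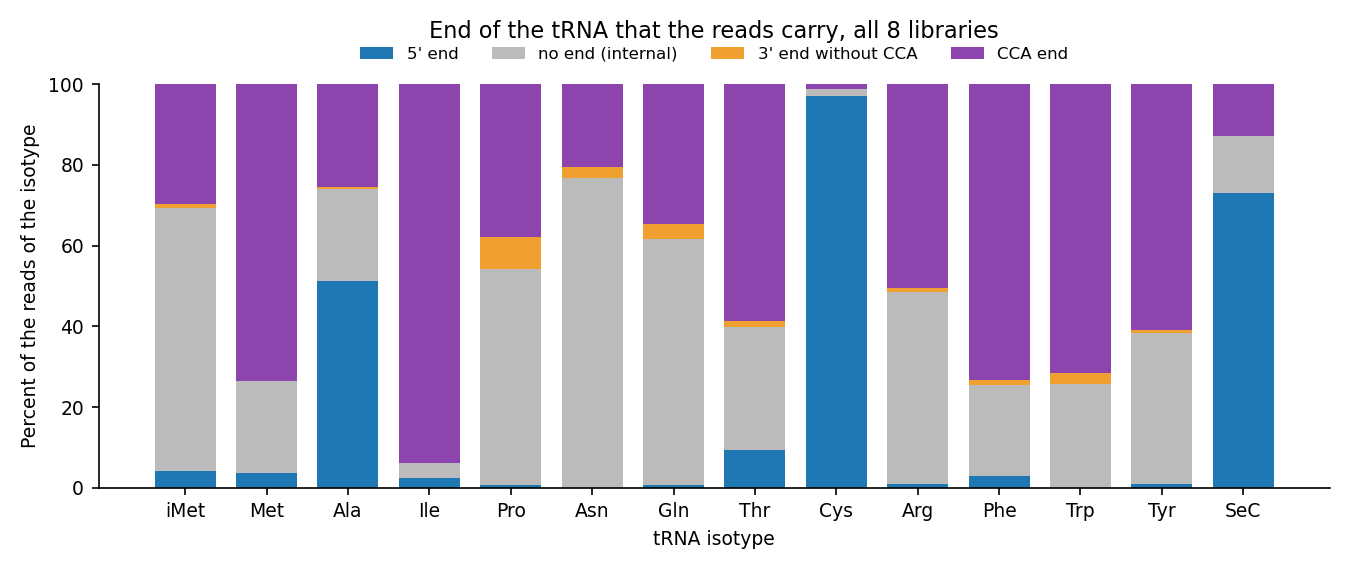
Percent of the reads of each isotype that are annotated at the 5′ end, as internal, at the 3′ end without CCA and at the CCA end, over all 8 libraries. Cys, SeC and Ala are mostly 5′ fragments, Ile mostly CCA-end fragments and Asn mostly internal ones.

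The 5′ share of each isotype does not depend on how libraries are scaled. For SeC it was 76.6%, 68.6%, 76.4% and 75.7% in activated and 67.6%, 73.2%, 71.6% and 73.5% in control sperm. 3 activated libraries lay above every control library, and activated replicate 2 lay below 3 of them. The difference was 2.89 percentage points (exact permutation test, p = 0.286, adjusted p = 0.419, n = 4 per group), and without activated replicate 2 it was 4.80 points. Without control replicate 1 it was 1.60 points (exact permutation test, p = 0.571, n = 4 and 3). For iMet the share was 3.69%, 3.74%, 3.72% and 1.74% in activated and 3.82%, 4.25%, 7.64% and 3.72% in control sperm. Of the activated libraries only replicate 2 lay above the lowest control library, replicate 4, by under 0.1 points. The difference was -1.64 points with p = 0.0571 by the exact permutation test (adjusted p = 0.314 over 22 isotypes, n = 4 per group), and without control replicate 4 the difference was -2.02 points. Without control replicate 3, the highest library, it was -0.710 points (exact permutation test, p = 0.343, n = 4 and 3), so the size rests on that library. For Cys the share lay between 96.0% and 97.4% in all 8 libraries. No share of the 14 isotypes passed an adjusted p of 0.05.

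5′ fragments stopped at few positions. In Cys, 25.8% of 5′ reads of the main start ended at base 23, in the D arm, and 24.3% at base 25, beside it. Another 26.01% ended between 2 bases before and 2 bases after the anticodon, which lies at bases 33 to 35. The largest single stops there were base 32, with 10.9%, and base 34, with 8.29%. In SeC, whose anticodon begins at base 36, 58.03% ended in that window, 33.8% at base 37 alone. The share in that window was 29.3%, 26.4%, 26.7% and 26.3% in activated and 19.5%, 27.3%, 24.8% and 28.6% in control libraries for Cys. Control replicate 1 was lowest and the groups overlapped. For SeC it was 50.02%, 60.8%, 68.96% and 60.5% in activated and 61.1%, 55.9%, 52.1% and 56.4% in control libraries, with activated replicate 1 lowest and activated replicate 3 highest. In Ala 2.78% of the 5′ reads that could be placed ended there, and 80.96% in iMet.

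**Figure D4:**
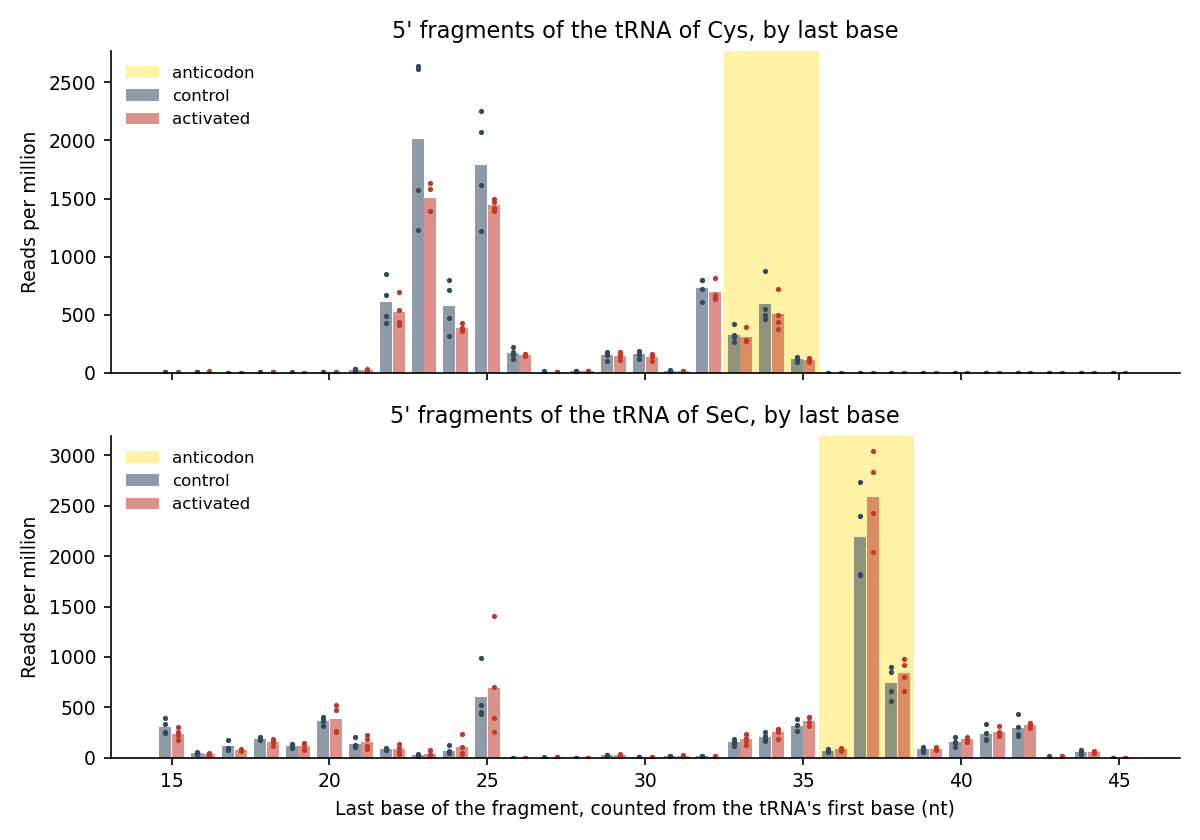
RPM (bars, mean of 4; dots, single libraries) of 5′ fragments of Cys and SeC that begin at the first base of the tRNA, by the base at which they end, with the anticodon shaded. Cys peaks at bases 23 and 25, SeC at base 37.

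The 37 nt fragment of SeC was at 2428, 2039.7, 2831 and 3042 RPM in activated and 2394, 2735, 1827 and 1815 RPM in control sperm. Control replicates 3 and 4 were lowest, and the groups overlapped. Its ratio was 1.18, with 1.15 within the rich and 1.20 within the poor set. edgeR gave a log2 fold change of 0.20 (SE 0.31, adjusted p = 0.999), which ran from 0.061 to 0.34 with 1 library left out. The 25 nt fragment of SeC ranged more widely, from 254 to 1405 RPM, and was highest in activated replicate 1 and control replicate 2, both of the poor set. The 23 nt fragment of Cys was at 1598, 1352, 1354 and 1541 RPM in activated and 2574, 1532, 2533 and 1199 RPM in control sperm. It was about as high in control replicate 2 as in the activated libraries, higher in control replicates 1 and 3 and lowest in control replicate 4. Its ratio was 0.746, with 0.530 within the rich and 1.15 within the poor set, so the direction was opposite in the sets. Its log2 fold change was -0.41 (SE 0.31, adjusted p = 0.999 by edgeR).

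By length, 26.7% of the reads of the 14 isotypes had 15 to 20 nt, 27.5% had 21 to 27 nt, 17.7% had 28 to 36 nt, the usual range of fragments cut at the anticodon, and 27.99% had 37 to 45 nt. The ratio of activated to control was 0.831 for 15 to 20 nt and 1.04 for 37 to 45 nt. For 15 to 20 nt it was 0.561 within the rich and 1.28 within the poor set, and for 37 to 45 nt 0.987 and 1.102, so both changed direction between the sets. Reads of 15 to 20 nt were at 9427, 6989, 5696 and 7850 RPM in activated and 10508, 6485, 12092 and 6962 RPM in control sperm. Control replicates 1 and 3 were highest. 5′ reads of 37 to 45 nt, nearly all from SeC, had a ratio of 1.15 in all libraries and within each set.

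**Figure D5:**
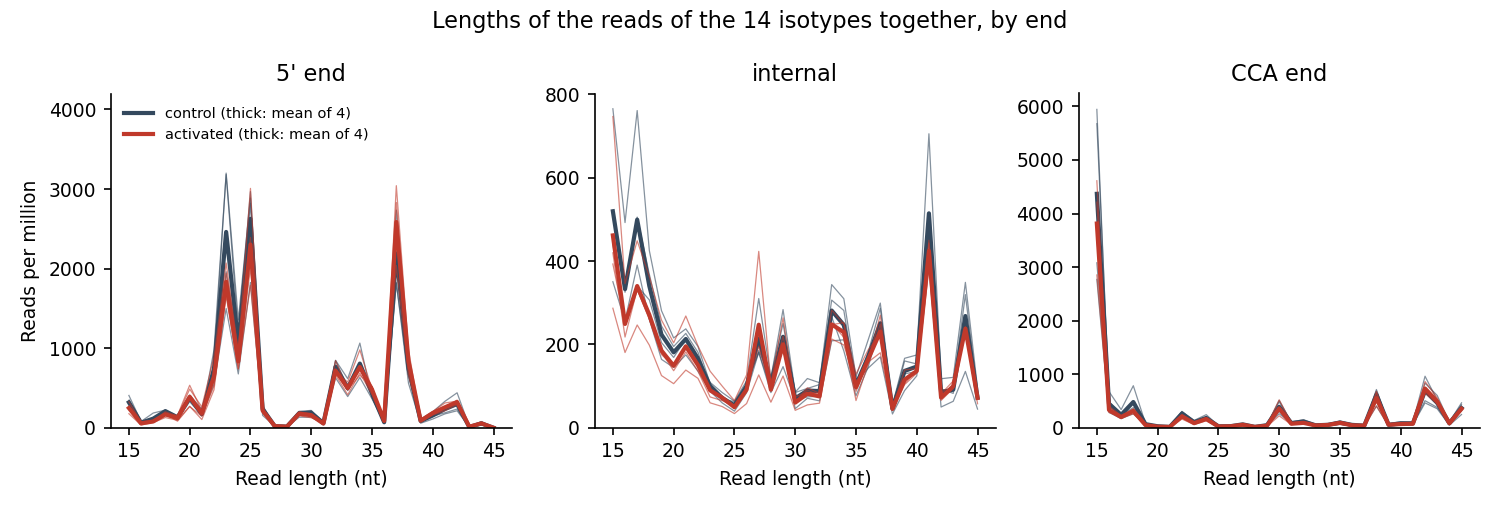
RPM of the 14 isotypes together by read length, for 5′-end, internal and CCA-end fragments (thin lines, single libraries; thick lines, mean of 4). 5′ fragments peak at 23, 25 and 37 nt, and CCA-end fragments at 15 nt.

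All 1033502 CCA-end reads ended in CCA, as their label has it. Of these 45.5% matched the genome, against 100% of 5′ reads. The CCA is added after transcription, so a match means that the same letters, CCA included, also stand somewhere in the genome. Where they stand was not tested. Such matches made up 79.4% of CCA-end reads of 15 to 20 nt (51.4% without Ile) and 1.39% of those of 37 to 45 nt, so the tRNA origin of the shortest, including the 15 nt fragment of Ile, is less certain. All 11254 CCA-end reads that named Phe alone matched the genome, the 38 nt fragment included. The 94452 CCA-end reads that named both Phe and Ser were left out of this. Some reads annotated as internal were a CCA end that lacked its last 1 or 2 bases: 16.5% of internal reads of the 14 isotypes, and 85.8% of those that did not match the genome. The motif TTCGA or TTCAA, which spans the start of the T loop, stood in 96.2% of the 860 CCA-end fragments of at least 25 nt (sense strand, as sequenced) and in 5.86% of all fragments of such length.

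In some isotypes, 3′ fragments of 37 to 45 nt often began in or just before the anticodon. Among CCA-end and 3′-end reads of that length, the anticodon stood within the first 10 bases in 98.9% for Gln, 86.0% for iMet and 46.5% for Asn. The measure needs the whole anticodon. It leaves out the leading Asn fragment of 42 nt (44.9% of these Asn reads), which begins on the second base of the anticodon. For Trp, Phe and SeC the share was at most 0.727%, and their leading fragments began past the anticodon. For Ala, Cys and Tyr it was at most 0.544%. SeC held 97269 of these reads and Trp 59990, against 40504 for Gln.

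For the test of single fragments, 534 members, which held 90.9% of the reads of the 14 isotypes, had at least 50 counts in at least 4 libraries. A member that passed through 1 group alone had to be high there, so counts over the tested members describe them only. edgeR called 0 of the 534 (log2 fold change beyond 1 with an adjusted p below 0.05), against 61 of all 12077 fragments tested (0.505%). At an unadjusted p under 0.05 and the same fold change, 1 member was higher and 9 were lower, against 353 higher and 403 lower of all 12077 fragments. DESeq2 with apeglm also called 0 members, against 1.99% of all fragments, with 0 members higher and 1 lower at the unadjusted p against 240 and 69 of all fragments. The lowest adjusted p of a member was 0.412 by edgeR. Without control replicate 4 edgeR called 0 of all 11587 fragments and so 0 members, with 1 higher and 8 lower at the unadjusted p against 305 and 280 of all. That number of lower members ran from 1 without control replicate 3 (227 of all 10723) to 19 without control replicate 2 (429 of all 10566).

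Log2 fold changes of the members leaned downward. 404 of the 534 were below 0, against 5912 of 12077 over all fragments (49.0%), and the medians were -0.20 and 0.01. Ala had 63 of 67 fragments below 0 with a median of -0.50, Cys 36 of 39 with -0.28, and SeC 74 of 118 with -0.09. When libraries were scaled by size alone the median over all fragments moved from 0.01 to 0.12 and that of the members from -0.20 to -0.14. With the mitochondrial rRNA set as a covariate the members' median was -0.22. It was -0.38 without activated replicate 1 and -0.09 without activated replicate 3.

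Summed by isotype and end, 0 of the 47 member sums tested were called by edgeR (0 of all 525, 0%) or by DESeq2 (0.381% of all), and 0 passed an unadjusted p under 0.05 with the fold change by either tool, against 2 higher and 34 lower of all 525 by edgeR and 0 and 3 by DESeq2. By edgeR, 3 did so without control replicate 2, against 49 lower of all 500, and 4 without control replicate 4, against 18 lower of all 510, and each of these members was lower. 44 of the 47 were below 0, against 280 of all 525, with a median of -0.37 against -0.06 over all sums. With 1 library left out the members' median ran from -0.56 (control replicate 4) to -0.24 (control replicate 3). Without control replicate 4 the median over all sums was 0.050. Summed by length as well, 0 of 461 member sums were called by edgeR (0% of all 2932) or DESeq2 (0.341% of all), with 0 higher and 5 lower at the unadjusted p by edgeR (11 and 119 of all) and 0 by DESeq2 (4 and 16 of all).

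In 4 of the 534 tested members every activated library lay below every control library (1.47% of all tested fragments did), and in 1 every activated library lay above (2.52% of all). Over all 534, edgeR log2 fold changes ran from -3.21, in a Trp fragment whose groups overlap, to 1.15, in the Arg fragment below. The 3 largest falls and the only rise among members without overlap follow.
Thr-AGT, CCA end, 22 nt: tcgaatcccagcggtgcctCCA
Ala-CGC, internal, 16 nt: gtgtgaggtcccgggt
iMet-CAT, CCA end, 22 nt: tcgaaaccatcctctgctaCCA
Arg-TCG, internal, 33 nt: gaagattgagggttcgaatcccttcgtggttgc

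The Thr fragment was at 7.18, 6.80, 5.62 and 7.33 RPM in activated and 14.01, 9.43, 15.2 and 8.02 RPM in control sperm. Control replicate 4 lay just above activated replicate 4. Its log2 fold change was -0.80 (SE 0.32, adjusted p = 0.641 by edgeR and 0.184 by DESeq2). The Ala fragment had a log2 fold change of -0.72 (adjusted p = 0.821 by edgeR), which ran from -0.88 to -0.41 with 1 library left out. That of the iMet fragment was -0.68, a description alone, since it met the count minimum in all 4 control libraries and in 2 activated ones and so was tested through the group where it is high. The Arg fragment does not match the genome. Though annotated as internal, it ends like the 15 nt CCA-end fragment of Arg up to the first C of CCA, apart from 1 base. It may thus be a CCA end that lacks its last bases, which was not tested. The fragment was at 3.69, 5.89, 5.83 and 5.74 RPM in activated and 3.46, 2.59, 1.29 and 1.81 RPM in control sperm. Activated replicate 1 and control replicate 1 nearly met, at 3.69 and 3.46 RPM. The ratio was 2.31, with 2.47 within the rich and 2.14 within the poor set, and its log2 fold change was 1.15 (SE 0.37, adjusted p = 0.499 by edgeR and 0.0632 by DESeq2). It met the count minimum in all 4 activated libraries and in 1 control library, and so was tested through the group where it is high: its fold change and p are given as a description. At these levels a library of 9297271 reads holds few reads of it, since 50 counts there correspond to 5.38 RPM.

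The other named fragments, the leading ones of the 13 isotypes and those at further ends of some, had log2 fold changes between -0.86 (Ala, CCA end, 18 nt) and 0.67 (Tyr, CCA end, 15 nt), all with an adjusted p of at least 0.869 by edgeR. The Tyr fragment rested on activated replicate 1, at 34.7 RPM against 6.10 to 12.5 RPM in the other 7 libraries. The Ala fragment was highest in control replicate 3, at 262 RPM against 62.1 to 161 RPM elsewhere. The internal 25 nt fragment of Phe had too few counts to be tested.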

How the data were processed

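Per the labels and the study's methods, small RNA libraries were made from 100 ng of sperm RNA and sequenced as single reads of 50 bp. The authors deposited, for each library, raw read counts of every distinct sequence, made with SPORTS1.1 at default settings: adapters trimmed, reads of 15 to 45 bp kept with duplicates, and matches with Bowtie and 0 mismatches to mm10 and to miRNA, rRNA, tRNA, piRNA and other RNA sequences. Samples were grouped as activated or control by their titles, and the genotypes of the groups are those the study gives. Sequences whose annotation named any other isotype, 105218 reads, were left out. Members, lists and the rule for named fragments were chosen with earlier results of these data known. That rule took the leading fragment of each isotype, leading fragments at further ends with at least 10% of its reads, called fragments, and the 3 largest falls and rises among groups that do not overlap. Single fragments of Met are not reported here.

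Counts were summed and scaled to library totals. edgeR 4.0.16 (TMM, quasi-likelihood, adjusted over all fragments or sums of the series) was the main test on sequences with at least 50 counts in at least 4 libraries, with DESeq2 1.42.0 and apeglm 1.24.0 as the alternative, in R 4.3.3. Both were tested on simulated data. Exact permutation tests were two-sided over all assignments of the libraries to groups (70 for 4 against 4, and fewer with 1 left out), with Python 3.11.15, numpy 2.4.6 and pandas 2.3.3. A count of 0 allows up to 3 counts (0.130 to 0.323 RPM), for counting error only. Alternatives were other scalings, count minimums, denominators, genome-matching fragments, a replicate block, a covariate for mitochondrial rRNA (above or below 0.5% of reads) and leaving out each library.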

Additional observations from a re-analysis of the deposited data

Results flagged for a closer look

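In 10 of 116 groups of 4 libraries, the highest or lowest library stood farther from the next than Dixon's 95% critical value allows. Chance marks about 1 in 20 such groups. Control replicate 4, the library with the high epithelial and muscle miRNAs, was the low one for Phe at 90.4 RPM, Trp at 868 RPM, the 38 nt CCA-end fragment of Trp at 263 RPM and its 37 nt internal fragment at 55.7 RPM. The part of those miRNAs' cells in these values was not tested. The 37 nt fragment of Trp is the 38 nt one without its last A. Both count among the Trp reads, so the Trp flags are not independent. Control replicate 3 was the high one for the 5′ share of iMet, at 7.64%, and for the 16 nt internal fragment of Ala, at 20.8 RPM. Among activated libraries, replicate 4 was low for the 5′ share of iMet at 1.74%, replicate 2 for the 5′ share of SeC at 68.6%, and replicate 1 for the 33 nt internal fragment of Arg at 3.69 RPM. Replicate 1 was high for the 15 nt CCA-end fragment of Tyr, at 34.7 RPM.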

How the results depend on the processing

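The counts of called members were 0 for fragments under 15 of 16 alternatives, and 2 of 4816, both lower, with a minimum of 1 count in 4 libraries, where 1743 fragments were called higher and 1057 lower of all 387985. Under 8 of those 15, 0 of all fragments were called, and under the other 7 between 30 and 240 were. For the sums by end and by end and length they were 0 under all 16 alternatives each, 15 of which also called 0 of all sums. Replicate numbers did not pair the samples: correlations of same-numbered deviations were -0.63, -0.55, 0.59 and 0.51. With a replicate block edgeR called 0 member fragments, 0 sums by end and 0 sums by length, as it called 0 over all fragments and sums, and no sample of the activated group matched best with its own number.

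The ratio over all members was 1.17 against all nuclear tRNA reads, 1.16 within the libraries poor and 0.717 within those rich in mitochondrial rRNA, and 0.838 to 0.955 with 1 library left out. The cause was not tested for any reversal here.

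Against all nuclear tRNA reads the isotype ratio turned above 1 for iMet 1.104, Met 1.232, Ile 1.15, Asn 1.08, Gln 1.17, Thr 1.1303, Cys 1.071, Arg 1.136, Phe 1.105 and Trp 1.115. Within the poor set it did so for iMet 1.20, Met 1.11, Ile 1.49, Pro 1.15, Gln 1.096, Thr 1.399, Cys 1.0999, Arg 1.22, Phe 1.17 and Trp 1.17. Within the rich set Tyr stood at 0.777 and SeC at 0.968, and with the replicate block Tyr at 0.988. With 1 library left out the ratio ranged from 0.834 to 1.20 for Tyr, 0.910 to 1.06 for Met, 0.7996 to 1.014 for Ile and 0.742 to 1.004 for Thr.

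The difference in 5′ share (percentage points, activated minus control) turned within the poor set to 0.0026 for Asn, 0.0155 for Gln and 0.00448 for Trp, and within the rich set to 0.679 for Thr and -0.174 for Tyr. With 1 library left out it ranged from -0.213 to 0.272 for Tyr, -0.522 to 0.265 for Phe, -1.53 to 1.06 for Thr and -0.0136 to 0.0033 for Asn.

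The log2 fold change of the 22 nt internal fragment of iMet was 0.0058 by DESeq2, 0.016 with median-ratio scaling and 0.072 with library size alone. The set covariate gave -0.087 for the 15 nt internal fragment of Thr and -0.105 for the 18 nt internal one of Arg, and the replicate block -0.091 and -0.149. With 1 library left out log2 fold changes crossed 0 for iMet internal 22 nt (-0.133 to 0.102), Ile CCA end 15 nt (-0.328 to 0.0074), Asn CCA end 42 nt (-0.282 to 0.086), Gln CCA end 45 nt (-0.207 to 0.096), Thr CCA end 15 nt (-0.556 to 0.0012), Thr internal 15 nt (-0.434 to 0.272), Arg CCA end 15 nt (-0.264 to 0.333), Arg internal 18 nt (-0.467 to 0.290), Tyr CCA end 15 nt (-0.377 to 0.891) and SeC CCA end 42 nt (-0.041 to 0.261). The other values kept their direction: 194 of 224 isotype ratios, 160 of 175 share differences and 339 of 364 log2 fold changes also kept their side of the threshold.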
